A study of Mus musculus with 12 samples.

Results

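The genes described here are 35 members of the NRF2 programme and of the glutathione transferase families, followed in mouse liver across 4 groups. They come from a fixed list of symbols matched to the 55471 gene IDs of the count table. The list was chosen with earlier results of these data known, so it is not independent of them. The list holds 2 regulators (Nfe2l2, which encodes NRF2, and Keap1), 21 other NRF2 targets and 12 glutathione transferases of the alpha, mu, pi and theta classes. All 35 were found, and 34 of them passed the filter on low counts and entered the fit of 13866 genes. The filter is met by counts in 1 group alone, so a gene can pass it through the group where it is high, and Slc7a11 was the member that did not pass.

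RNA was taken from the livers of C57BL/6 mice and sequenced as messenger RNA, with 3 samples in each of 4 groups. Mice of the SD group ate a standard diet. The other 3 groups ate a diet labelled MASLD, for metabolic dysfunction-associated steatotic liver disease, in which fat builds up in the liver together with metabolic disturbance. Of these, 1 group had no further treatment (MASLD), 1 received Aza-TdC at the relative dose 0.1x and 1 at 1x. The compound, a nucleoside analogue, is built into DNA and depletes DNMT1, the enzyme that maintains DNA methylation, and the series asks what DNMT1 does in this disease. The absolute dose, the composition of the diet, its duration, and the age and sex of the mice are not given in the labels. Whether each sample is its own animal is not stated either, and p-values therefore speak only to the spread among the sequenced samples, part of which may be technical.

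NRF2 is a transcription factor that KEAP1 holds in the cytoplasm and passes on for degradation. Electrophiles and oxidants modify KEAP1, NRF2 then accumulates, pairs with small MAF proteins and binds antioxidant response elements near genes for quinone reduction, glutathione synthesis, NADPH supply and export of conjugates. Glutathione transferases couple glutathione to reactive compounds. The liver expresses them at high levels, several are NRF2 targets, and many also answer to nuclear receptors and to sex-dependent hormone signals.

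Library totals ran from 30213048 to 41852606 counts, and replicate libraries correlated with Spearman's rho of at least 0.980 across genes. Dnmt1 itself was higher in MASLD than in SD (log2 fold change 0.50 ± 0.17, adjusted p = 0.0335), lower at 0.1x than in MASLD (-0.59 ± 0.17, adjusted p = 0.0336) and did not pass at 1x (-0.15 ± 0.16, adjusted p = 0.730). Both passing calls were lost without any 1 of 5 libraries (adjusted p 0.0664 to 0.115 for the diet, 0.0666 to 0.109 at 0.1x), which for the diet spare SD sample 4 and at 0.1x spare 0.1x sample 4. After removal of the trend of expression with GC content and transcript length, Dnmt1 differed by 0.20 on the diet (adjusted p = 0.35) and by -0.19 at 0.1x (adjusted p = 0.539). The compound is described as acting on the DNMT1 protein, so its mRNA does not test the treatment. A trend of expression with the GC content and length of transcripts explained 22.3% of the deviation from the overall mean in 0.1x sample 3 and 18.6% in 1x sample 2, against at most 12.1% in the other libraries. All 10 hepatocyte markers were detected and summed to 172492 to 183574 CPM in the SD libraries.

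Antioxidant response elements share the core TGACNNNGC, and this core was searched on both strands of the promoter windows of RefSeq (GRCm38.p6), which run from 250 bases before to 50 bases after each start site. Its first letters are shared with the AP-1 site. Of the 35 members, 29 had a promoter window under their symbol. The core occurred in 11 of these 29 genes (37.9%), against 3781 of 27025 genes with a window (14%). Among the other NRF2 targets 9 of 17 genes held it, whereas among the glutathione transferases it occurred in 1 of 10, Gsta3. The genes with a match were Nfe2l2, Srxn1, Txnrd1, Prdx1, Gclm, Abcc2, Abcc4, G6pdx, Pgd, Ugdh and Gsta3. In Srxn1 and Pgd, both called as higher on the diet, the match lies after the start site, and only stretches before it are printed. The matches in Gclm and Abcc2 and a second match in Ugdh are not shown either. A match is a run of letters and not a measured binding site, and its absence from so short a window says nothing about elements further away. The following stretches are shown because they belong to the pathway's own regulator, to genes called as higher on the MASLD diet (Abcc4, G6pdx and, in part of the fits, Ugdh), to 2 classical targets that did not pass (Txnrd1, Prdx1) and to the single glutathione transferase. They are written 5′ to 3′ on the gene's strand, and capitals mark the core, which reads GCNNNGTCA where it lies on the opposite strand.
Nfe2l2, chr2:75704865-75704913, minus strand: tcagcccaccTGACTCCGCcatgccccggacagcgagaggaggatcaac
Abcc4, chr14:118706220-118706274, minus strand: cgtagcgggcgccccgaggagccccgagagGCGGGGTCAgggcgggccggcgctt
Abcc4, chr14:118676932-118676984, minus strand: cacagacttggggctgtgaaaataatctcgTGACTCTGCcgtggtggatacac
G6pdx, chrX:74428899-74428967, minus strand: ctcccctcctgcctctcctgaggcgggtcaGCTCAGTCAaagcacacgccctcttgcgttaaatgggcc
Ugdh, chr5:65435936-65436004, minus strand: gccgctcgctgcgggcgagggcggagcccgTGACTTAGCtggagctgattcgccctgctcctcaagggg
Txnrd1, chr10:82859084-82859152, plus strand: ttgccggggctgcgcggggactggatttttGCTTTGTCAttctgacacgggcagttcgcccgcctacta
Prdx1, chr4:116685436-116685504, plus strand: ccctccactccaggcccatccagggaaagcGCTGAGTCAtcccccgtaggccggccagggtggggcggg
Gsta3, chr1:21240434-21240502, plus strand: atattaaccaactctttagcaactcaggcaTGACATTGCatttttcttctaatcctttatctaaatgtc

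The first comparison asks what the MASLD diet changed in these genes. Most of the NRF2 targets outside the transferases were higher in MASLD livers, led by Cbr3, Abcc4 and Srxn1, while the transferases split by class. Of the 34 members tested, 15 rose and 7 fell at an adjusted p under 0.05 (edgeR's quasi-likelihood test, Benjamini-Hochberg over all genes tested), and 12 did not pass. Over all 13866 genes 29.5% passed, 15.6% upward and 13.9% downward, so the diet moved a large share of the transcriptome as well. At an unadjusted p under 0.05 there were 27 members and 41.2% of all genes. Every MASLD library lay above every SD library in 18 of the 34 members and below in 6, as in 25.1% and 22.8% of all genes. Among the other NRF2 targets 11 of 20 tested rose and 1 fell, with a median log2 fold change of 0.51. Among the 12 glutathione transferases 3 rose and 6 fell, with a median of -0.42, and the median over all genes tested was 0.029.

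**Figure D1:**
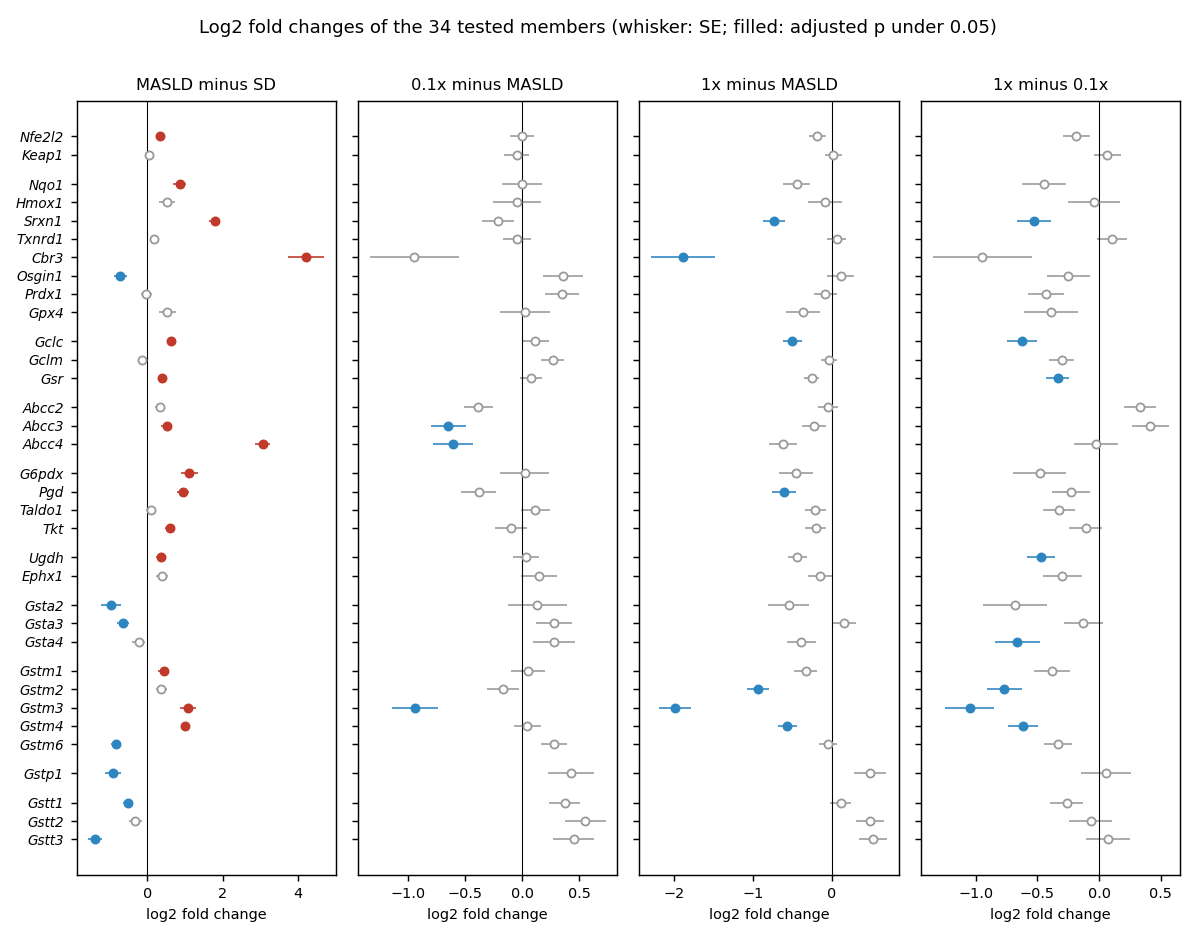
Log2 fold changes (x axis) of the 34 tested members (y axis, grouped by role) in the 4 comparisons, with standard errors as whiskers, red for genes that rose, blue for genes that fell and open grey for genes that did not pass an adjusted p of 0.05. The x axes differ between panels. On the diet 15 members lie in red, whereas in the 3 comparisons with Aza-TdC no member does.

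The regulators came first. Nfe2l2 (chr2:75675513-75704641, mm10) stood at 41.9, 41.8 and 41.5 CPM (counts scaled to library size and TMM factors) in the SD samples and at 48.8, 52.9 and 55.1 in the MASLD samples. No MASLD value fell within the range of the SD samples, which were nearly identical. The log2 fold change was 0.32 ± 0.11 (SE; adjusted p = 0.0353), and it did not pass when any 1 of the 6 libraries was left out (adjusted p 0.0519 to 0.119) or after removal of the GC and length trend. Keap1 (chr9:21229730-21239361) measured 45.6, 50.3 and 47.2 CPM in SD and 49.3, 47.0 and 52.0 in MASLD, and these ranges overlapped. Its difference was 0.051 ± 0.11 on the log2 scale (95% interval -0.18 to 0.28, adjusted p = 0.759).

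Among the redox enzymes, Nqo1 (chr8:107388225-107403206), the quinone reductase often used as an NRF2 readout, measured 8.12, 10.9 and 11.2 CPM in SD and 20.5, 17.3 and 17.0 in MASLD. Every MASLD library lay above every SD library, with a fold change of 1.81 (log2 0.86 ± 0.18, adjusted p = 0.00261). Srxn1 (chr2:152105516-152111376), the sulfiredoxin that rescues over-oxidised peroxiredoxins, stood at 30.3, 25.3 and 26.9 CPM in SD and 107, 94.7 and 82.6 in MASLD. Its lowest MASLD library was well above its highest SD library, and the fold change was 3.44 (log2 1.78 ± 0.14, adjusted p = 1.03e-06).

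Cbr3 (chr16:93683215-93690990), a carbonyl reductase, was close to silent on the standard diet, at 0.512, 0.57 and 0.727 CPM, and reached 15.4, 11.6 and 6.81 CPM on the MASLD diet. The spread within MASLD was wide, yet no library came near the SD range. Its log2 fold change of 4.21 ± 0.49 was the largest of the 34 members (adjusted p = 2.19e-05). Osgin1, an oxidative stress-induced growth inhibitor, went the other way, from 117 ± 21.3 CPM (SD, n = 3) to 70.9 ± 9.71 CPM, and was the only one of the 20 tested members outside the regulators and transferases that fell (log2 -0.72 ± 0.18, adjusted p = 0.00669). The remaining redox enzymes did not pass. Hmox1, which breaks down haem, differed by 0.51 ± 0.21 (adjusted p = 0.0839) and the lipid hydroperoxide reductase Gpx4 by 0.53 ± 0.22 (adjusted p = 0.0855). Txnrd1, which reduces thioredoxin, and Prdx1, a peroxide reductase, differed by 0.19 ± 0.12 and -0.026 ± 0.15. In Gpx4 48.4% of the 100-base windows of the transcript also occur in Gpx4-ps2, so the handling of shared reads bears on its counts.

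Of the genes for glutathione synthesis and recycling, Gclc, the catalytic subunit of the rate-limiting glutamate-cysteine ligase, rose from 212 ± 17.5 to 329 ± 31.1 CPM (log2 0.64 ± 0.12, adjusted p = 0.00132). Gclm, the modifier subunit of the same enzyme, measured 185 ± 9.69 and 167 ± 8.77 CPM and did not pass (log2 -0.14 ± 0.10, adjusted p = 0.307). After removal of the GC and length trend, Gclm passed as lower in MASLD (adjusted p = 0.00536). Gsr, which regenerates reduced glutathione, rose from 54.3 ± 0.559 to 70.6 ± 2.42 CPM (log2 0.38 ± 0.096, adjusted p = 0.00862). Slc7a11, which imports cystine for glutathione synthesis, had 8, 5 and 1 counts in the MASLD samples, 5 counts in 1x sample 5 and 0 in the other 8 libraries, too few for a test.

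All 3 export pumps for glutathione and glucuronide conjugates stood higher in every MASLD library than in every SD library, and 2 passed the test. Abcc4 (chr14:118482692-118706219), a pump of the blood-facing membrane, measured 1.91, 1.2 and 1.25 CPM in SD and 13.6, 13.3 and 9.33 in MASLD. The rise was 8.33-fold (log2 3.06 ± 0.21, adjusted p = 1.9e-07). Abcc3, also of the blood-facing membrane, rose from 279 ± 29.7 to 397 ± 33.1 CPM (log2 0.51 ± 0.15, adjusted p = 0.0195), a call lost without SD sample 3, SD sample 5 or MASLD sample 3 (adjusted p 0.0526 to 0.0837) and after removal of the GC and length trend. Abcc2, the pump of the bile-facing membrane, differed by 0.33 ± 0.13 (adjusted p = 0.0663).

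In the pentose phosphate pathway, both enzymes that yield NADPH rose. G6pdx (chrX:74409483-74429194), the entry enzyme, stood at 5.36, 4.53 and 4.25 CPM in SD and 9.62, 9.57 and 11.3 in MASLD, with no overlap and a fold change of 2.16 (log2 1.11 ± 0.22, adjusted p = 0.00184). Pgd went from 42.4 ± 7.46 to 81.3 ± 3.27 CPM (log2 0.94 ± 0.15, adjusted p = 0.00037). Of the enzymes that rearrange the sugars, Tkt rose (log2 0.61 ± 0.14, adjusted p = 0.00426) and Taldo1 did not pass (log2 0.087 ± 0.13, adjusted p = 0.643). Ugdh, which makes the sugar donor for glucuronidation, rose by 0.35 ± 0.12 (adjusted p = 0.0327), a call lost on leaving out SD sample 4 or 5, or MASLD sample 3 or 4 (with adjusted p 0.0807 to 0.131). After removal of the GC and length trend the Ugdh difference was 0.07 (adjusted p = 0.678). Ephx1, the microsomal epoxide hydrolase, differed by 0.38 ± 0.16 (adjusted p = 0.0812).

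**Figure D2:**
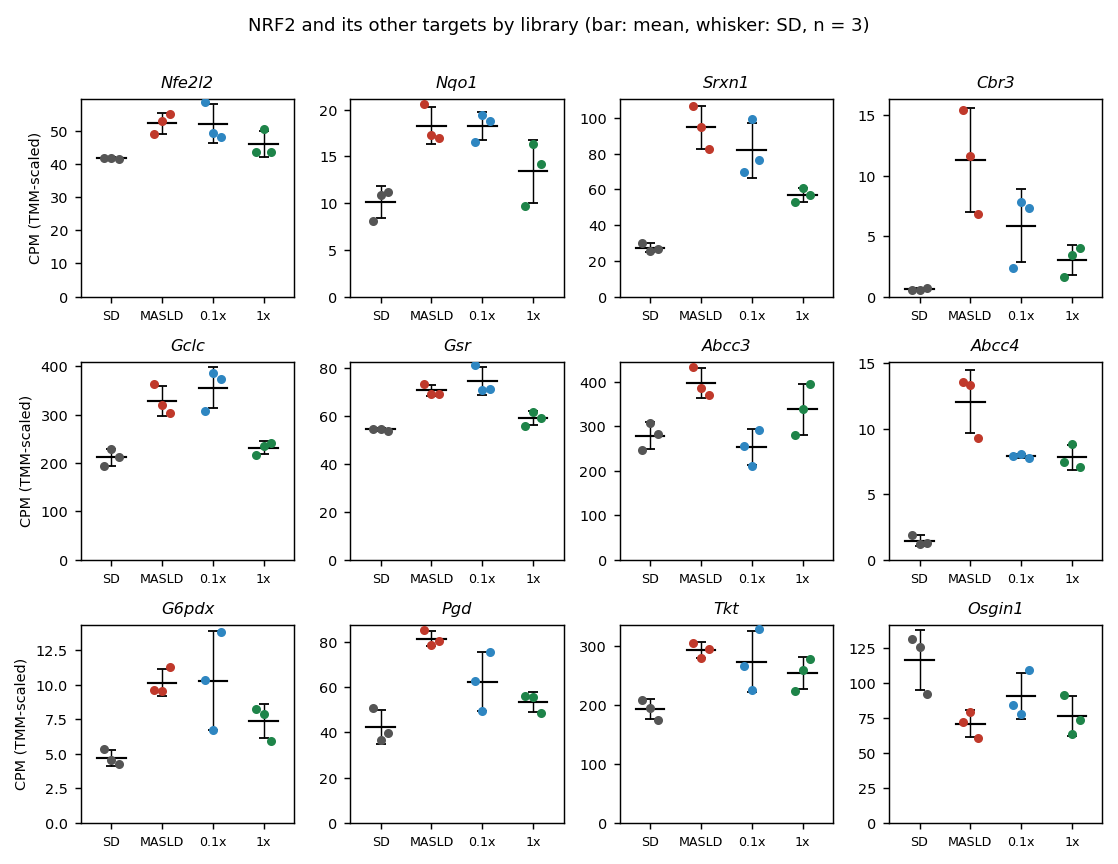
CPM (y axis, from 0, a scale for each gene) of NRF2 and 11 of its targets in the 12 libraries (points), by group on the x axis, with group means as bars and SD as whiskers (n = 3). Cbr3, Abcc4 and Srxn1 show the widest separation of SD from MASLD, and Osgin1 is the gene that is lower in MASLD.

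The transferases of the mu class did not move as 1 block. Gstm3 (chr3:107963696-107969283) measured 69.3, 67.7 and 79.1 CPM in SD and 161, 187 and 109 in MASLD. All MASLD libraries were above all SD libraries, and the fold change was 2.11 (log2 1.08 ± 0.20, adjusted p = 0.00115). Gstm4 (chr3:108040408-108044894) stood at 96.6, 74.1 and 73.1 CPM in SD and at 164, 166 and 158 in MASLD, again without overlap (log2 1.00 ± 0.12, adjusted p = 3.47e-05). Gstm1 had the highest group mean per length of the members in every group (1984 ± 168 CPM per kb of transcript in SD). In SD Gstp1 lay close to it, at 1909 ± 750 CPM per kb. Gstm1 rose to 2689 ± 98.4 CPM per kb in MASLD (log2 0.44 ± 0.15, adjusted p = 0.0351). That call was lost on leaving out SD sample 3 or 4, or any 1 MASLD library (with adjusted p 0.0591 to 0.104).

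Gstm2 did not pass on the diet (log2 0.37 ± 0.14, 95% interval 0.078 to 0.66, adjusted p = 0.0539), but passed after removal of the GC and length trend (0.55, adjusted p = 0.00202). Gstm6 fell, from 157 ± 12.6 to 87.7 ± 2.78 CPM (log2 -0.84 ± 0.11, adjusted p = 8.08e-05), so that neighbouring mu genes moved in opposite directions. The 7 mu genes of this cluster lie within 149 kb of chromosome 3, in the order Gstm5, Gstm7, Gstm6, Gstm3, Gstm2, Gstm1 and Gstm4. Gstm7, which lies beside Gstm6 and was not among the 35 members, fell as well (log2 -0.90 ± 0.11, adjusted p = 3.75e-05). Gstm5 at the end of the cluster did not pass (log2 -0.17 ± 0.18, adjusted p = 0.508). Of the 100-base windows, 13.8% in Gstm3, 7.73% in Gstm1, 2.41% in Gstm6 and 0 in Gstm4 also occur in another gene or pseudogene.

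**Figure D3:**
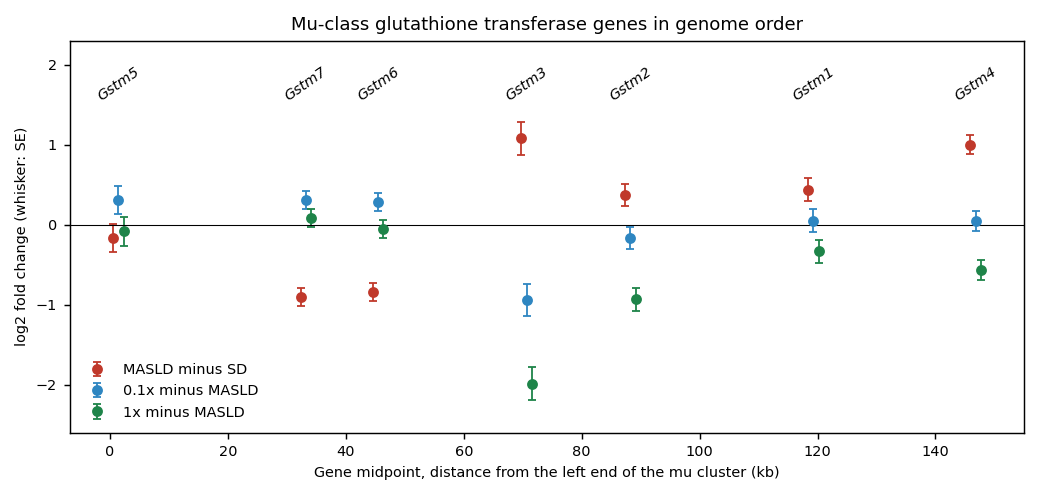
Log2 fold changes (y axis, SE as whiskers) of the 7 mu-class genes against the distance of the gene's midpoint from the left end of the cluster in kb (x axis), for the diet (red), 0.1x (blue) and 1x (green). On the diet Gstm7 and Gstm6 lie below 0 and Gstm3 to Gstm4 above it, and at 1x the lowest point is Gstm3 at -1.99.

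Of the 7 transferase members outside the mu class none rose on the diet in edgeR or DESeq2, and 5 fell. Of the alpha class, which handles products of lipid peroxidation among other substrates, Gsta3 fell from 2213 ± 470.0 to 1412 ± 70.3 CPM (log2 -0.65 ± 0.16, adjusted p = 0.00701). Gsta2 fell by -0.96 ± 0.26 on the log2 scale (a negative value is lower in MASLD; adjusted p = 0.0124), but the groups overlapped, because SD sample 3 stood at 36.1 CPM beside 94.3 and 74.8 in the other SD samples. The Gsta2 call was lost without SD sample 4 or MASLD sample 5 (adjusted p 0.0578 to 0.0732), and 35% of the windows of Gsta2 occur in close relatives, Gsta1 among them. Gsta4, with a preference for the aldehyde 4-hydroxynonenal, did not pass (log2 -0.23 ± 0.18, adjusted p = 0.358).

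Gstp1, the pi-class enzyme, measured 2277, 1255 and 1171 CPM in SD and 855, 832 and 809 in MASLD. No SD library reached down to the MASLD range, although SD sample 3 stood far above the other SD libraries. The log2 fold change was -0.91 ± 0.20 (adjusted p = 0.00381), and without SD sample 3 it was -0.55. The call held in each of the leave-one-out fits (highest adjusted p 0.0162). In the same SD sample 3, a list of 10 male-biased hepatocyte genes summed to 27564 CPM, while SD samples 4 and 5 gave 7965 and 10576 CPM and MASLD libraries 4857 to 8961, and 6 of those 10 genes fell on the diet. The part of sex-dependent expression in the Gstp1 values was not tested. Of the windows of Gstp1 52.8% also occur in Gstp2, so the counts of Gstp1 are uncertain.

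Gstt3 (chr10:75774115-75781414) of the theta class stood at 51.8, 77.7 and 83.9 CPM in SD and 23.9, 23.6 and 34 in MASLD. The ranges were clearly apart, and the gene was 2.62-fold lower in MASLD, the largest fall among the transferase members (log2 -1.39 ± 0.18, adjusted p = 5.26e-05). A share of 23.9% of its windows occurs in Gm20441, an annotated locus that overlaps it in sequence. Gstt1, also theta, fell by -0.52 ± 0.14 on the log2 scale (negative as lower in MASLD; adjusted p = 0.0105), a call lost without SD sample 5 or MASLD sample 4 (adjusted p 0.056 to 0.0581). Gstt2 did not pass (log2 -0.32 ± 0.18, adjusted p = 0.187).

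**Figure D4:**
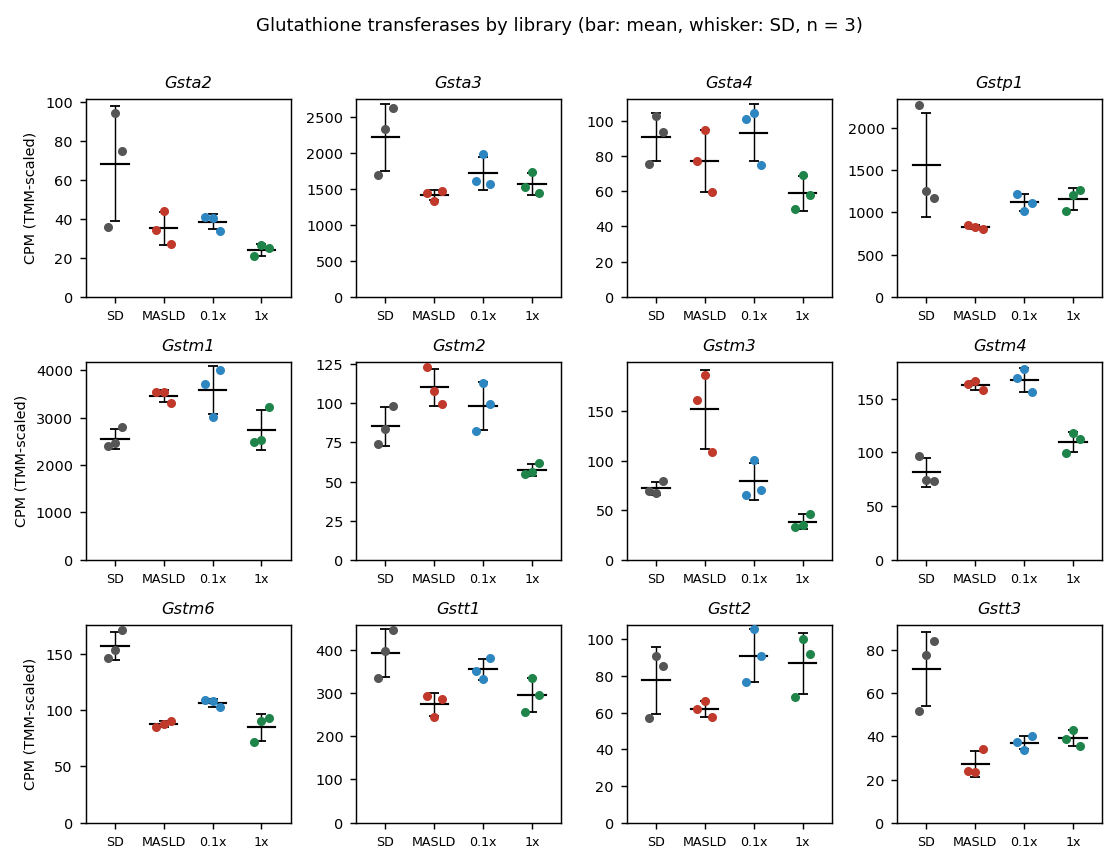
CPM (y axis, from 0, a scale for each gene) of the 12 glutathione transferases in the 12 libraries (points), by group on the x axis, with group means as bars and SD as whiskers (n = 3). Gstm3 and Gstm4 are higher in MASLD than in SD, Gstm6, Gstt3 and Gstp1 are lower, and at 1x Gstm2 and Gstm3 lie below all MASLD libraries.

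As shares of the summed transferase level per length, the mu class made up 36.4 ± 3.25% in SD and 56.3 ± 1.21% in MASLD. The pi class went from 29.98 ± 10.7% to 18.5 ± 0.0799%, the alpha class from 26.9 ± 6.36% to 19.9 ± 0.693% and the theta class from 6.77 ± 1.19% to 5.3 ± 0.475%. The SD shares of the alpha and pi classes were wide because of SD sample 3, in which pi took 42.2%. The mu share ranged from 32.9% to 39.3% in SD and from 55.1% to 57.5% in MASLD, so it did not overlap.

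**Figure D5:**
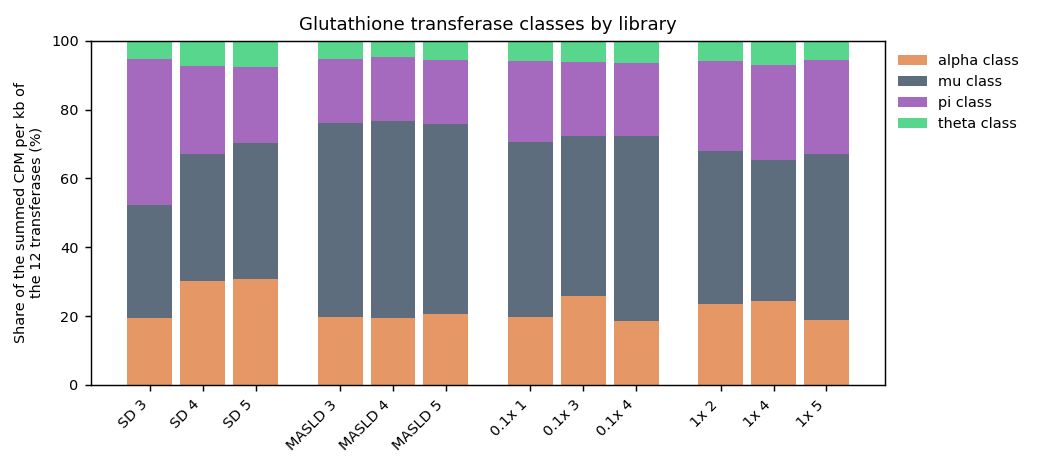
Share of the summed CPM per kb of the 12 glutathione transferases taken by each class (y axis, %) in each library (x axis, stacked bars from 0 to 100). The mu class takes 55.1% to 57.5% in the MASLD libraries and 32.9% to 39.3% in the SD libraries.

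Cell type markers were read as well, and over all genes 15.6% were higher and 13.9% lower on the diet. Hepatocyte markers summed to 172492 to 183574 CPM in SD and 89473 to 109792 in MASLD, with 9 of 10 lower. Markers of lipid-associated macrophages went from 274 to 328 to 429 to 594 CPM (8 of 10 higher) and those of stellate cells and fibroblasts from 146 to 167 to 256 to 372 CPM (9 of 10 higher). Of the Kupffer cell markers 5 of 10 were higher, of the sinusoidal endothelial ones 5 of 10, of those of monocytes and neutrophils 4 of 10 and of the cholangiocyte ones 4 of 8 tested. None of the markers was at 0 in all libraries. In bulk liver fewer cells of a type and less RNA per cell cannot be told apart, and the part of the cell mixture in the changes of the members was not tested.

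Of the 22 members called on the diet, 16 passed in every fit that left out 1 library. They were Nqo1, Srxn1, Cbr3, Osgin1, Gclc, Gsr, Abcc4, G6pdx, Pgd, Tkt, Gsta3, Gstm3, Gstm4, Gstm6, Gstp1 and Gstt3. Without 1 library, 11 to 14 members passed as higher and 6 to 8 as lower.

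The second question is what Aza-TdC did to these genes on the MASLD diet. At 0.1x few of them passed the test, and their counts lay near the shares over all genes. No member passed as higher than in MASLD and 3 passed as lower, the pumps Abcc3 and Abcc4 and the mu transferase Gstm3, while over all genes 13.2% passed, 6.08% upward and 7.09% downward. The 0.1x libraries lay wholly above MASLD in 7 members and wholly below in 5, against 16.8% and 18.7% of all genes. The median log2 fold change of the members was 0.037, that of the transferases 0.28 and that of all genes tested -0.022. At an unadjusted p under 0.05, 12 of the 34 members were counted, against 30.9% of all genes. DESeq2 called Gclm, Gstt1 and Gstt2 as higher, and all 3 export pumps and 1 mu transferase as lower.

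Gstm3 measured 65.8, 101 and 70.8 CPM at 0.1x, and each of these values was below the lowest MASLD library. It fell by 1.92-fold (log2 -0.94 ± 0.20, adjusted p = 0.0133), and the call was lost without MASLD sample 4 (adjusted p = 0.0578). Abcc3 fell from 397 ± 33.1 to 254 ± 40.3 CPM (log2 -0.65 ± 0.15, adjusted p = 0.016), a call lost without MASLD sample 3 or 4 (adjusted p 0.0514 to 0.0646). Abcc4 stood at 7.93, 8.1 and 7.76 CPM, below all MASLD libraries (log2 -0.61 ± 0.18, adjusted p = 0.0386). Its call was lost without MASLD sample 3 or 4 or any 1 sample at 0.1x (adjusted p 0.0659 to 0.14). After removal of the GC and length trend neither pump passed, and without 0.1x sample 3 and 1x sample 2 Abcc3 and Gstm3 passed (adjusted p = 0.0237 and 0.00774) but Abcc4 did not (0.0708).

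The regulators and Nqo1 did not pass at 0.1x. Nfe2l2 stood at 58.8, 49.4 and 48.1 CPM (log2 against MASLD 95% interval -0.23 to 0.23, adjusted p = 0.984). Keap1 measured 49.8, 41.5 and 52.1 CPM (95% interval -0.28 to 0.18) and Nqo1 16.5, 19.4 and 18.8 CPM (95% interval -0.38 to 0.37), both with ranges that overlapped those of MASLD. Srxn1 at 69.5, 99.4 and 76.4 CPM and G6pdx at 10.4, 6.72 and 13.8 CPM also overlapped MASLD and did not pass (adjusted p = 0.322 and 0.961). Cbr3 ranged widely, at 2.39, 7.83 and 7.34 CPM (log2 -0.95 ± 0.39, adjusted p = 0.113), and Gstm4 stood at 169.6, 178 and 156 CPM, with values both above and below the MASLD libraries (adjusted p = 0.84).

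The 6 transferase members that fell on the diet had positive log2 fold changes at 0.1x. A positive sign was not particular to them, as 10 of the 12 transferases had it, Gstm1 and Gstm4 among them, which rose on the diet. None of the positive values passed in the edgeR fit of all 12 libraries. Gstt3 stood at 37.4, 33.8 and 40.1 CPM (log2 0.45 ± 0.18, adjusted p = 0.0999), a range that overlapped MASLD. Gstp1 differed by 0.43 ± 0.20 (adjusted p = 0.164), Gsta3 by 0.28 ± 0.16 (0.242), Gstm6 by 0.28 ± 0.11 (0.108), Gsta2 by 0.13 ± 0.26 (0.767) and Gstt1 by 0.37 ± 0.14 (0.0788). Of the same class as Gstt1, Gstt2 differed by 0.55 ± 0.18 (adjusted p = 0.0538). Other fits called some of these genes as higher, Gstt1 in DESeq2 (adjusted p = 0.0358), Gstp1 with only the 2 groups compared (0.0379), Gstt3 with no filter (0.0319) and Gstt2 in DESeq2 (0.0209) and in other fits. The comparison of diets uses the same MASLD samples, so these values are not independent of the diet values above.

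At 1x the calls among the members were all downward. Of 34 members 7 fell and none rose, against 3.11% of all genes called, 1.49% upward and 1.62% downward. The 1x libraries lay wholly below MASLD in 15 members and wholly above in 3, against 14.3% and 13.5% of all genes. The 7 comprised Srxn1, Cbr3, Gclc and Pgd among the other NRF2 targets and Gstm2, Gstm3 and Gstm4 of the mu class. The median log2 fold change was -0.22 over the members, -0.25 over the other NRF2 targets, -0.57 over the 5 mu genes and -0.0048 over all genes tested. No alpha, pi or theta member passed in the edgeR fit of all 12 libraries or in DESeq2. With only the 2 groups compared Gstp1 and Gstt2 passed as higher (adjusted p = 0.0271 and 0.0493), and with no filter on low counts Gstp1, Gstt2 and Gstt3 passed as higher and Gsta2 as lower (0.0359, 0.0157, 0.00835 and 0.00617). An unadjusted p under 0.05 was found in 16 of the 34 members and in 17% of all genes. DESeq2 called none of the members as higher and 9 as lower, with Abcc4 and Ugdh in addition to the 7.

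Gstm3 showed the largest difference at this dose. It measured 32.6, 35.5 and 46.7 CPM at 1x, below every library of the MASLD and 0.1x groups and also below the SD libraries. Against MASLD it was 3.98-fold lower (log2 -1.99 ± 0.21, adjusted p = 0.000212), and the log2 value ranged from -2.18 to -1.81 when single libraries were left out, passing each time. Gstm2 fell from 110.3 ± 12 to 57.7 ± 3.81 CPM (log2 -0.94 ± 0.14, adjusted p = 0.0029) and also passed in each of those fits. Gstm4 stood at 99.1, 118 and 112 CPM, below all MASLD libraries (log2 -0.57 ± 0.12, adjusted p = 0.0222). Gstm1 and Gstm6, the other mu members, did not pass (adjusted p = 0.253 and 0.891).

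Srxn1 measured 52.8, 60.9 and 56.7 CPM at 1x, all below the MASLD range and all above the SD range (log2 against MASLD -0.74 ± 0.14, adjusted p = 0.0125). Cbr3 stood at 1.66, 3.48 and 4.02 CPM and was 3.71-fold lower than in MASLD (log2 -1.89 ± 0.40, adjusted p = 0.0218). Gclc fell to 231 ± 13.2 CPM (log2 -0.51 ± 0.12, adjusted p = 0.0362) and Pgd to 53.3 ± 4.27 CPM (log2 -0.61 ± 0.15, adjusted p = 0.0416). In each of these genes no 1x library overlapped the MASLD libraries.

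These calls rested on few libraries. Without MASLD sample 3, MASLD sample 4 or 1x sample 2, 2 members passed as lower, without 1x sample 4 there were 3 and without 1x sample 5 there were 4. Srxn1 was lost without MASLD sample 3 or 4 or 1x sample 2 (adjusted p 0.0594 to 0.0744), and Cbr3 in addition without 1x sample 4 (0.0628 to 0.116). Gclc and Gstm4 were each lost without MASLD sample 3 or 4 or any 1 sample at 1x (adjusted p 0.083 to 0.188 and 0.0503 to 0.117), and Pgd without any 1 of the 6 libraries (0.0795 to 0.168). Without both libraries with the strongest GC and length trend, Srxn1, Pgd, Gstm2 and Gstm3 passed (adjusted p = 0.0156, 0.0372, 0.00931 and 0.000762), while Cbr3, Gclc and Gstm4 did not. With the trend removed from all 12 libraries instead, all 7 passed, with adjusted p from 0.000104 in Gstm3 to 0.0417 in Pgd.

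Other members at 1x did not pass in the edgeR fit of all 12 libraries. Nqo1 stood at 9.67, 16.3 and 14.2 CPM, below all MASLD libraries (log2 -0.45 ± 0.18, 95% interval -0.83 to -0.074, adjusted p = 0.196). Its lowest value came from 1x sample 2. Nfe2l2 measured 43.6, 50.4 and 43.6 CPM (95% interval -0.42 to 0.042) and Keap1 53.8, 46.6 and 49.6 CPM (95% interval -0.22 to 0.25), and both overlapped MASLD. G6pdx at 8.26, 7.92 and 5.95 CPM and Abcc4 at 7.5, 8.88 and 7.06 CPM lay below all MASLD libraries without passing there (adjusted p = 0.288 and 0.0703). DESeq2 called Abcc4 as lower (log2 -0.62, adjusted p = 0.0257), and likewise Ugdh (-0.43, adjusted p = 0.00744). Gstt3 at 38.6, 42.9 and 35.5 CPM lay above all MASLD libraries and Gstp1 differed by 0.48 ± 0.20, neither of them past the threshold (adjusted p = 0.137 and 0.229).

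The mu share of the summed transferase level per length was 50.4 ± 3.6% at 0.1x and 44.6 ± 3.58% at 1x, and the pi share 22.0 ± 1.29% and 26.9 ± 0.859%. Cell markers were read here too. At 1x 1 of 10 hepatocyte markers rose, and 2 of 10 markers of lipid-associated macrophages, 2 of 10 of monocytes and neutrophils and 1 of 10 of stellate cells fell. Of 10 Kupffer cell markers 1 rose and 1 fell, with 7 at an unadjusted p under 0.05, and 1 of 8 cholangiocyte markers fell. At 0.1x 2 of 10 stellate cell markers and 1 each of the lipid-associated macrophage, Kupffer cell, sinusoidal endothelial and cholangiocyte markers fell. There 1 of 10 monocyte and neutrophil markers rose. Lipid-associated macrophage markers summed to 389 to 523 CPM at 0.1x and 359 to 453 at 1x, those of stellate cells to 191 to 287 and 181 to 227, and those of hepatocytes to 93138 to 140945 and 107513 to 125604. At either dose 4 of the 10 male-biased genes rose. Over all genes 6.08% were higher and 7.09% lower at 0.1x, and counts of 1 of 10 there lay near these shares. At 1x the shares were 1.49% and 1.62%, with 17% at an unadjusted p under 0.05. The part of the cell mixture in the values of the members was not tested.

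The last comparison sets the doses against each other. Of 34 members 8 were lower at 1x than at 0.1x and none was higher, with 13% of all genes called, 7.13% upward and 5.86% downward. In 14 members the 1x libraries lay wholly below those of 0.1x and in 0 wholly above, against 14.5% and 16.3% of all genes. The 8 were Srxn1, Gclc, Gsr, Ugdh, Gsta4, Gstm2, Gstm3 and Gstm4, and 19 of the 34 members had an unadjusted p under 0.05, against 30.4% of all genes. Gstm3 was 2.07-fold lower (log2 -1.05 ± 0.20, adjusted p = 0.00853), Gstm2 differed by -0.77 ± 0.14 (adjusted p = 0.00662), Gclc by -0.62 ± 0.12 (adjusted p = 0.00879) and Gstm4 by -0.61 ± 0.12 (adjusted p = 0.00908). In Gsr, Ugdh, Srxn1 and Gsta4 the log2 differences were -0.34, -0.47, -0.53 and -0.66, with adjusted p from 0.0198 to 0.0346. DESeq2 called 13 members as lower and 1 as higher. Of the Kupffer cell markers 5 of 10 were lower at 1x than at 0.1x and none was higher in edgeR, and they summed to 373 to 571 CPM at 0.1x and 278 to 369 at 1x. Of the markers of lipid-associated macrophages and of monocytes and neutrophils 1 of 10 each was lower, and of the hepatocyte markers 1 of 10 was higher. The part of these shifts in the differences between the doses was not tested.

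Among the fits that left out 1 library, calls in this contrast were fewest without 1x sample 2, in which the GC and length trend was strong. A fit with fewer samples also detects less, and the part of the trend was not tested. Without 1x sample 2 only 1 member, Gstm2, passed as lower, and without 1x sample 5 there were 5. Srxn1 was also lost without 0.1x sample 3, Gsr and Ugdh without 0.1x sample 1, and Gsta4 without 0.1x sample 1 or 3. Gstm2 passed in every fit that left out 1 library (highest adjusted p 0.0418). Without both 0.1x sample 3 and 1x sample 2, none of the 8 passed (Gstm2 -0.62, adjusted p = 0.0575, and Gstm3 -0.74, adjusted p = 0.0841). All 8 differences stayed negative there. Gsr at -0.34 and Ugdh at -0.48 were close to their values in all libraries, and the others were smaller, down to -0.32 in Srxn1. With the trend removed from all libraries instead, Gsr and Gsta4 were lost, and Gstm2 differed by -0.42 (adjusted p = 0.0487). In the fit of all libraries Srxn1, Gclc, Gstm2, Gstm4, Cbr3 and Pgd passed at 1x against MASLD and not at 0.1x. The test between the doses passed there in Srxn1, Gclc, Gstm2 and Gstm4, and did not in Cbr3 and Pgd (adjusted p = 0.129 and 0.335). Against MASLD at 0.1x Gstm2 differed by -0.17 (adjusted p = 0.427). It passed as lower there after removal of the trend (-0.49, adjusted p = 0.0316), and with no filter Cbr3 and Pgd passed as lower (0.00012 and 0.0399).

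Other genes of the pathway were read from lists beside the members. Over all genes 15.6% were higher and 13.9% lower on the diet, and 6.08% and 7.09% at 0.1x. At 1x these shares were 1.49% and 1.62% against MASLD, and 7.13% and 5.86% against 0.1x. Of 10 partners and competitors of KEAP1 and NRF2, 1 rose on the diet, Nfe2l1, the NRF2 relative of the endoplasmic reticulum (log2 0.57 ± 0.10, adjusted p = 0.000914), and 1 fell, the small MAF gene Mafg (-0.45 ± 0.13, adjusted p = 0.0161). The Mafg call was lost without SD sample 4 or MASLD sample 4 (adjusted p 0.0741 to 0.0751). At 0.1x 3 of the 10 fell and 1 rose. Nfe2l1 fell by 0.55 on the log2 scale (adjusted p = 0.0101) and Bach1, a repressor that competes for the same elements, by 0.55 (adjusted p = 0.0112, 0.0523 without MASLD sample 4). After removal of the GC and length trend neither passed, with -0.25 for Nfe2l1 (adjusted p = 0.16) and -0.23 for Bach1 (adjusted p = 0.173), and on the diet Nfe2l1 differed by 0.31 (adjusted p = 0.0263). At 1x none of the 10 passed in edgeR's quasi-likelihood test, with 3 at an unadjusted p under 0.05 and 2 called as lower by DESeq2, and between the doses Bach1 was higher at 1x (log2 0.56 ± 0.11, adjusted p = 0.00895, lost without 1x sample 2 and, at 0.31, after removal of the trend).

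Among 16 tested further NRF2 targets, 3 rose and 2 fell on the diet, near the shares over all genes (15.6% and 13.9%). Their median log2 fold change was 0.078, with 9 positive and 7 negative values. This list did not show the rise of the other NRF2 targets among the members, whose median was 0.51. The malic enzyme gene Me1, a further source of NADPH and also a lipogenic gene, rose by 1.44 ± 0.16 (adjusted p = 1.39e-05) and Aldh3a2, a fatty aldehyde dehydrogenase, by 1.96 ± 0.17 (adjusted p = 1.47e-06). The carboxylesterase Ces1g fell (log2 -1.18 ± 0.13, adjusted p = 1.61e-05). At 0.1x 1 of the 16 rose, at 1x none passed in edgeR (4 at an unadjusted p under 0.05, 0 in DESeq2), and between the doses 1 was higher and 3 lower at 1x.

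Of 11 tested glutathione transferases outside the members, 1 rose and 4 fell on the diet. Gsta1 rose from 1.39 ± 0.908 to 11.7 ± 6.05 CPM (log2 3.05 ± 0.48, adjusted p = 0.000323), opposite in sign to Gsta2, with which it shares sequence. At 1x Gsta1 was the 1 gene of this list that passed, as lower than in MASLD (log2 -2.57 ± 0.46, adjusted p = 0.00937), and without MASLD sample 4 it did not (adjusted p = 0.0553). Gstk1, a transferase of mitochondria and peroxisomes, fell on the diet (log2 -0.50 ± 0.12, adjusted p = 0.00609). At 0.1x none of the 11 passed, with 6 at an unadjusted p under 0.05, while DESeq2 called 4 of them as higher.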

How the data were processed

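Livers of C57BL/6 mice were measured by RNA-seq in 4 groups of 3 samples, grouped by the diet and treatment labels. Stranded libraries of polyadenylated RNA were read in pairs, per the labels' protocols, and the protocol and the design text name different Illumina instruments. Reads were aligned with STAR 2.7.3a to mm10, per the submitters' processing notes. Counting tool, strand setting and annotation were not given in the sources used here. Raw counts per gene were deposited by the submitters for 55471 IDs, with 0 columns outside the samples. A sample titled replicate 5 has a library named 8, and its title was used. Symbols, positions and transcript lengths came from GENCODE vM21 (55144 IDs matched, the others held 0.0105% of counts).

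From these counts, edgeR 4.0.16 in R 4.3.3 kept 13866 genes (filterByExpr by group), scaled libraries by TMM and fitted all 12 libraries in 1 quasi-likelihood model with a coefficient per group. Contrasts were tested two-sided, with p-values adjusted by Benjamini-Hochberg across the whole table and a threshold of 0.05. CPM are means ± SD (n = 3), and log2 fold changes carry a standard error, their size divided by the square root of F. Intervals are 95% intervals of the same fit. Levels between genes were compared per kb of the longest coding transcript. Totals of 30213048 to 41852606 counts set the counting precision. The fit was tested on simulated counts with known changes in a small part of the genes. Across the 4 comparisons it recovered 16.9% to 25.4% of 1.5-fold, 44.3% to 69.1% of 2-fold and 81.7% to 89.7% of 4-fold changes. In the data larger shares of genes passed, 29.5% on the diet, so these rates need not hold there. A member that did not pass may still differ.

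All 35 members are accounted for. Values per sample are given for members that passed with an absolute log2 fold change of at least 1 in any comparison and for Nfe2l2, Keap1 and Nqo1, with a few others added where single libraries mattered (Gstp1, Gsta2). Of other lists up to 2 genes per direction with the smallest adjusted p could be named, and some of them are. Gstm5 was named for its place in the cluster. The members, lists and tests were chosen with earlier results of these data known. Pathway and marker lists were general lists of gene names. Alternatives were upper-quartile or RLE factors, DESeq2 1.42.0, a filter at a mean of 1 CPM or none, fits of the compared groups alone, a replicate block, subtraction of a GC and length trend (splines with 5 degrees of freedom each), and leaving out each library. Leaving out the 2 libraries with the strongest trend was added after seeing the data.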

Additional observations from a re-analysis of the deposited data

How the results depend on the processing

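None of the 40 calls among the members reversed under any setting run, and 16 of them, 15 on the diet and Gstm3 at 1x, passed under all. The diet counts (15 higher, 7 lower) stayed within 1.5 times under every setting, with 11 to 14 higher and 6 to 8 lower when 1 library was left out. At 0.1x the count of higher members (0) was 1 with RLE factors, upper-quartile factors, a mean of at least 1 CPM or the GC and length trend removed, 2 with no filter or only the groups compared, and 3 with DESeq2. The count of lower members (3) was 6 with no filter and 0 to 3 without 1 library. At 1x the count of higher members (0) was 3 with no filter and 2 with only the groups compared, and that of lower members (7) was 4 without the 2 libraries of the strongest trend and 2 to 8 without 1 library. Between the doses the count of higher members (0) was 1 with no filter or DESeq2 and 0 to 1 without 1 library, and that of lower members (8) was 13 with DESeq2, 0 without the 2 libraries and 1 to 10 without 1 library. The cause of these shifts was not tested.

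Replicate numbers did not pair the samples: same-numbered samples of SD and MASLD had correlations of their deviations from -0.17 to -0.049, and at most 0.076 with Aza-TdC. With a replicate block the counts were 12 higher and 7 lower on the diet, 0 and 0 at 0.1x, 0 and 1 at 1x, and 0 and 0 for 1x against 0.1x. With the block and the trend removed together, 0 members were lower at 0.1x, 3 at 1x and 0 for 1x against 0.1x. Numbers 1 and 2 occur once each, so 0.1x sample 1 and 1x sample 2 carry no weight in the blocked fits, and over all genes those fits called 8 higher and 25 lower genes at 0.1x, 34 and 19 at 1x, and none in the contrast of doses. With 3 samples per group, few libraries decide each comparison with the compound.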

Other observations

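Genes that supply, use or break down glutathione moved more downward than upward on the diet (median log2 fold change -0.28). In edgeR's quasi-likelihood test 9 of 18 tested were lower and 4 higher, against 13.9% and 15.6% of all genes. Gnmt, which consumes the methyl donor S-adenosylmethionine, went from 2271 ± 337 to 365 ± 75.1 CPM (log2 -2.64 ± 0.18, adjusted p = 2.43e-07). Cth, which makes cysteine from cystathionine, went from 469.9 ± 56.9 to 98.7 ± 6.49 CPM (log2 -2.25 ± 0.13, adjusted p = 5.56e-08). Oplah, which returns oxoproline to glutamate, rose (log2 0.54 ± 0.11, adjusted p = 0.00251, and 0.30 after removal of the GC and length trend). At 0.1x 2 of the 18 rose and 1 fell, against 6.08% and 7.09% of all genes, and at 1x 2 rose, against 1.49%. Gnmt was higher at 1x than in MASLD (log2 0.81 ± 0.17, adjusted p = 0.0236), a call lost without MASLD sample 3 or 4 or 1x sample 2 or 4 (adjusted p 0.0831 to 0.136). At 0.1x Cth was higher (log2 0.49 ± 0.12, adjusted p = 0.0214), lost without any 1 MASLD sample or 0.1x sample 1 or 3 (adjusted p 0.0504 to 0.0852) and after removal of the trend (0.26, adjusted p = 0.16).

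Of 10 targets of the nuclear receptors CAR and PXR, which also drive several transferases, 4 fell on the diet and none passed as higher. Over all genes 13.9% fell and 15.6% rose. DESeq2 likewise called 0 as higher, and 5 of the 10 had an unadjusted p under 0.05 in edgeR, against 41.2% of all genes. The log2 fold changes were positive in 3 of the 10, up to 2.16, and negative in 7. The MASLD libraries lay wholly above the SD libraries in 2 and wholly below in 4, against 25.1% and 22.8% of all genes. Ces2a, a carboxylesterase, fell (log2 -2.03 ± 0.15, adjusted p = 5.91e-07), as did the cytochrome P450 gene Cyp2c29 (-2.02 ± 0.21, adjusted p = 8.68e-06), whose close relatives make its counts uncertain. Ces2a was higher than in MASLD at 0.1x (log2 0.80 ± 0.15, adjusted p = 0.0101) and at 1x (0.81 ± 0.15, adjusted p = 0.0113, lost without MASLD sample 3 or 4). Cyp2b10, the classical CAR target, was lower at 0.1x (log2 -2.61 ± 0.63, adjusted p = 0.0187), a call lost without MASLD sample 5 or 0.1x sample 1 (adjusted p 0.0529 to 0.0838). At 1x 3 of the 10 passed as higher than in MASLD and none as lower, against 1.49% and 1.62% of all genes. Between the doses 2 of the 10 were higher at 1x and none was lower, against 7.13% and 5.86% of all genes. The comparisons with MASLD share its 3 samples.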
